A study of Mus musculus with 4 samples.

Results

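The 46 genes described here encode parts of the cell cycle machinery, from DNA replication to the spindle checkpoint and cytokinesis. They were taken by symbol from a fixed list that was chosen with earlier results of these data known. All 46 were found among the 56748 gene IDs of the count files. They were divided into 10 replication genes, 8 G1 cyclins and kinases, and 28 mitosis genes. Of these, 40 had enough reads to be tested (9, 7 and 24 by list). The RNA came from C2C12, an established mouse myoblast line of wild-type genotype, kept in growth medium with fetal bovine serum. The scrambled group carried a control shRNA and the *Hnrnpl* knockdown group a cocktail of 3 shRNAs against *Hnrnpl*, on vectors that also gave eGFP and puromycin resistance. Each group had 2 libraries of nanopore direct RNA. By replicate number, 1 library of each group was placed in each of 2 batches. Each group was a single selected stable line sampled at different passages, so the line and the shRNA cannot be told apart, and p-values measure the spread between libraries of a line.

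The cell cycle runs on waves of transcription. Genes for origin licensing, the replicative helicase and nucleotide supply are switched on at the border of G1 and S by E2F factors, whereas genes for the spindle, the kinetochore and cell division follow in G2 and M, when a complex containing B-MYB and FOXM1 acts at CHR elements and the neighbouring CCAAT boxes bound by NF-Y. In myoblasts, cycling ends when the cells leave the cycle to fuse into myotubes. The comparison asks whether the replication and the mitosis arms of this programme stood at different RNA levels after *Hnrnpl* knockdown. In bulk RNA, a smaller fraction of cells in a phase and less RNA per cell in that phase cannot be told apart.

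Reads counted on genes ranged from 1229424 to 1676911 per library, and a count of 0 allows up to 1.79 to 2.44 CPM at 3 counts, for counting error only. *Hnrnpl* itself had 358 and 656 reads in scrambled and 242 and 258 in knockdown (log2 fold change -0.78, standard error 0.18, adjusted p = 0.0112). The adjusted p of *Hnrnpl* was 0.0567 and 0.0670 with parametric DESeq2 fits, 0.194 without scrambled 2 (log2 fold change -0.48) and 0.150 without knockdown 1 (-0.62). The myoblast markers *Des*, *Myf5*, *Cdh15*, *Chrna1* and *Vim* were read in every library, and *Myod1* and *Itga7* had 0 to 6 reads per library. For all 5 tested myoblast markers both knockdown libraries lay below both scrambled libraries, and 3 were called lower, *Des*, *Chrna1* and *Cdh15* with log2 fold changes of -0.56, -1.53 and -2.55. Of all genes tested, 26.0% lay below in this way and 3.22% were called lower. The 18 markers of differentiated myocytes and myotubes summed to 30 and 28 reads in scrambled and 12 and 23 in knockdown, with *Myog*, *Mymk*, *Myh3*, *Ckm* and *Ttn* at 0 in all libraries. Macrophage, endothelial and adipocyte markers summed to 0 to 4 reads per library and list. The part of these markers in the cell cycle values was not tested.

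CHR matches were frequent in the promoters of mitosis genes, and E2F matches were found in 4 of the 10 replication promoters. In the RefSeq promoter table (build GRCm38.p6, 250 bases before to 50 after the start), 37 members had an entry, with 41 promoters in all. Of the members named below, *Mcm4*, *Ccna2*, *Aurkb*, *Tpx2*, *Ccnd1*, *Ccnd2*, *Ccne2*, *Cdc23* and *Kif20a* had none. The CHR element was searched as TTTGAA or TTCGAA, the E2F motif as TTTCCCGC, TTTCGCGC, TTTGCCGC or TTTGGCGC, and the NF-Y box as CCAAT, each on both strands, and matches of one motif may overlap each other. A CHR match was present in 20 of 25 mitosis promoters (80.0%, exact 95% binomial interval 59.3 to 93.2%), in 2 of 10 replication promoters (20.0%), in 0 of 6 G1 promoters and in 19.2% of all 32851 promoters. *Prc1* and *Bub3* each have 2 overlapping promoters with a match, which the interval treats as independent. By gene, 18 mitosis genes had a match and 5 had none. When the 250 bases before the start alone were searched, the shares were 44.0% of mitosis promoters and 17.1% of all promoters. Among the 20 mitosis promoters with a match, 18 had one within 50 bases of the start. An E2F match was present in 4 of 10 replication promoters (40.0%), in 1 of 25 mitosis promoters (4.0%), in 1 of 6 G1 promoters and in 2.3% of all promoters. The CCAAT box was frequent in both arms, in 9 of 10 replication and 21 of 25 mitosis promoters against 37.4% of all promoters. A match is a description of letters and not a measured site.

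The 160 bases before the start are shown for the mitosis genes *Ttk* and *Cdc16*, which were called lower, for *Ube2c*, *Kif11* and *Cdk1* as mitosis genes with a CHR match before the start, and for *Mcm2*, *Mcm5* and *Mcm6* of the replicative helicase. Sequences run 5′ to 3′ in the direction of the gene, in GRCm38.p6, and capitals mark CHR, E2F and CCAAT matches on either strand. In *Ttk* the CHR match begins at base 8, with the start as base 1, and so is not in the stretch shown. That stretch holds 2 CCAAT matches. No match of the 3 motifs lies in the stretch of *Cdc16*. *Cdk1* holds 2 CHR, 1 E2F and 2 CCAAT matches, *Mcm2* 1 CHR match, *Mcm5* 2 E2F and 2 CCAAT matches, and *Mcm6* 3 E2F and 2 CCAAT matches, with 2 of the E2F matches in each of *Mcm5* and *Mcm6* overlapping.
Ttk, chr9:83834529-83834688, + strand: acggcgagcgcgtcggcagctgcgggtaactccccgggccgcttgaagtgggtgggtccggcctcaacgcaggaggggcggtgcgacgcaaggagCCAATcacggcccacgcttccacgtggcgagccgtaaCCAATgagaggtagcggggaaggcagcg
Cdc16, chr8:13757496-13757655, + strand: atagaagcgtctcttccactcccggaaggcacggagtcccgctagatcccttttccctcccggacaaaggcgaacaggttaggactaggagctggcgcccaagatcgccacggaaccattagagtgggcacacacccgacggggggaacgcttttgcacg
Ube2c, chr2:164769769-164769928, + strand: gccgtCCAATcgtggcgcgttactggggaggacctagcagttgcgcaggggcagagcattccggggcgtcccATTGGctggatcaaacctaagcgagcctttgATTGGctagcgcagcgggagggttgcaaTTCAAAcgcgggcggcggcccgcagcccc
Kif11, chr19:37376222-37376381, + strand: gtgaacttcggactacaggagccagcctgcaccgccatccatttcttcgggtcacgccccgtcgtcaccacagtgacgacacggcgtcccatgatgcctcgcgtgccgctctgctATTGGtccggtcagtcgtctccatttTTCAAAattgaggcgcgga
Cdk1, chr10:69352913-69353072, - strand: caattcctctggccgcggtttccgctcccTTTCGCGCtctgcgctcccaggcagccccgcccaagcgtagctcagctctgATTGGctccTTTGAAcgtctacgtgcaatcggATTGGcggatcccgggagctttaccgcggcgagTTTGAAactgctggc
Mcm2, chr6:88898781-88898940, - strand: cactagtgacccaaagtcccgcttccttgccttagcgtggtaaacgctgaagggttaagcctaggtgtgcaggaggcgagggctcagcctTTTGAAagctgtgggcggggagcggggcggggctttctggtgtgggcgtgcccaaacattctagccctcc
Mcm5, chr8:75109349-75109508, + strand: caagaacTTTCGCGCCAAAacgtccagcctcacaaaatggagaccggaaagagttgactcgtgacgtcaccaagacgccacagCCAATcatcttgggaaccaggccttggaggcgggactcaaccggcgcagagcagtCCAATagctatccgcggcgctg
Mcm6, chr1:128359706-128359865, - strand: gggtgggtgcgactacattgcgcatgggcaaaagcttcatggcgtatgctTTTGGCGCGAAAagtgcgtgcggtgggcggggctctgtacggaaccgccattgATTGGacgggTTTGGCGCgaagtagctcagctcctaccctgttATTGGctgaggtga

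**Figure D1:**
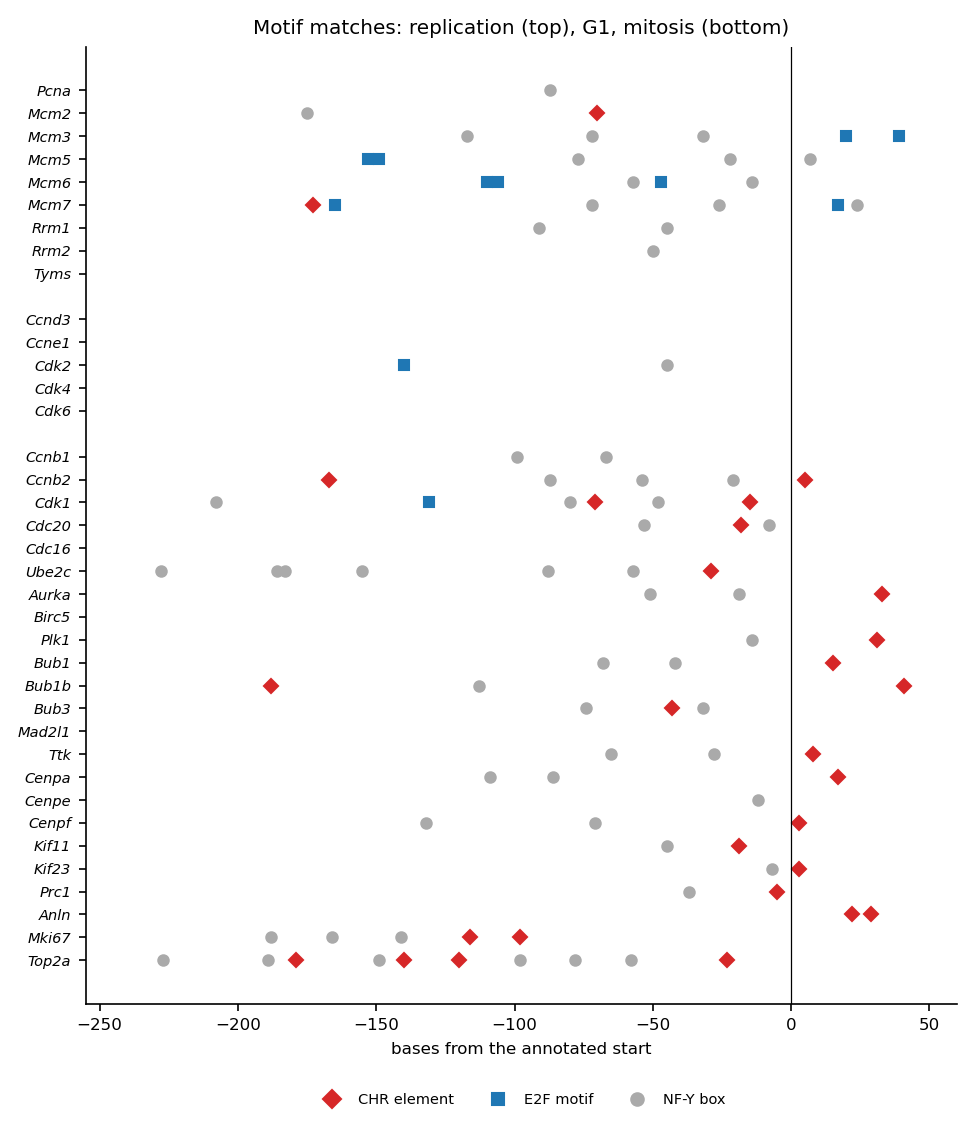
Position of CHR, E2F and NF-Y box matches relative to the annotated start (x axis, bases) in the first listed RefSeq promoter of each member with an entry, with replication genes at the top, G1 genes in the middle and mitosis genes at the bottom. CHR matches (red diamonds) sit mostly on mitosis genes near the start, and E2F matches (blue squares) mostly on *Mcm* genes.

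In the knockdown, 6 of 9 tested replication genes had a log2 fold change above 0 and 21 of 24 mitosis genes one below 0, and 3 members passed the thresholds. *Mcm4*, a subunit of the replicative helicase, was called higher, and *Cdc16*, a subunit of the anaphase-promoting complex, and *Ttk*, the MPS1 kinase of the spindle checkpoint, were called lower. A gene was called where its adjusted p was under 0.05, its log2 fold change beyond 0.5 in either direction and its mean normalized count above 10. Of the 8670 tested genes, 5.55% were called (2.33% higher and 3.22% lower), and 5.95% had an adjusted p under 0.05. The 3 calls among 40 tested members, 1 higher and 2 lower, thus lie close to the share over all genes. None of the 3 calls held in the 4 DESeq2 configurations, in which 112 to 228 of all genes were called, against 481 with edgeR. The log2 fold changes stayed about as large. With the Wald test and local fit they were 0.55 for *Mcm4*, -0.64 for *Cdc16* and -0.81 for *Ttk*. Nor did any call hold once the median change of each chromosome was removed, with values of 0.26, -0.55 and -0.45. In that fit 285 of all genes were called. Leaving out 1 library kept the call of *Ttk* without scrambled 1 or knockdown 2, and no call of the 3 without scrambled 2 or knockdown 1.

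By list, the median log2 fold change was 0.28 for the replication genes (a fold of 1.21), with *Rrm1*, *Pcna* and *Mcm5* below 0, and -0.27 for the mitosis genes (a fold of 0.829). Leaving out scrambled 2 or knockdown 1 moved the replication median to 0.18 and 0.44. Mitochondrially encoded genes took 5.73 and 5.42% of the counted reads in scrambled and 7.3 and 6.7% in knockdown, and with these genes and *Rn18s* left out the medians of the lists were again 0.28 and -0.27. Over all genes tested the median was -0.0006, and 49.9% lay above 0 and 50.1% below. An unadjusted p under 0.05 was reached by 4 replication genes, all higher, and by 9 mitosis genes, all lower, where 10.3% and 11.5% of all genes reached it in these directions. With 1 library left out, the 9 mitosis genes became 4 without scrambled 1 and 5 without any other library, and the 4 replication genes became 2 without scrambled 2 and 3 to 5 without any other. In these fits 8.62 to 10.5% of all genes were lower and 6.81 to 8.13% higher at that p. Both knockdown libraries lay below both scrambled libraries for 15 mitosis genes (62.5%) and above them for 1, whereas 26.0% of all genes tested lay below and 26.4% above. For replication genes, 5 of 9 lay above (55.6%) and 1 below. No test was made over the lists, which were chosen with earlier results of these data known. Of further genes of these functions, described below, 46 for replication had a median of 0.10 and 74 for mitosis one of -0.04.

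**Figure D2:**
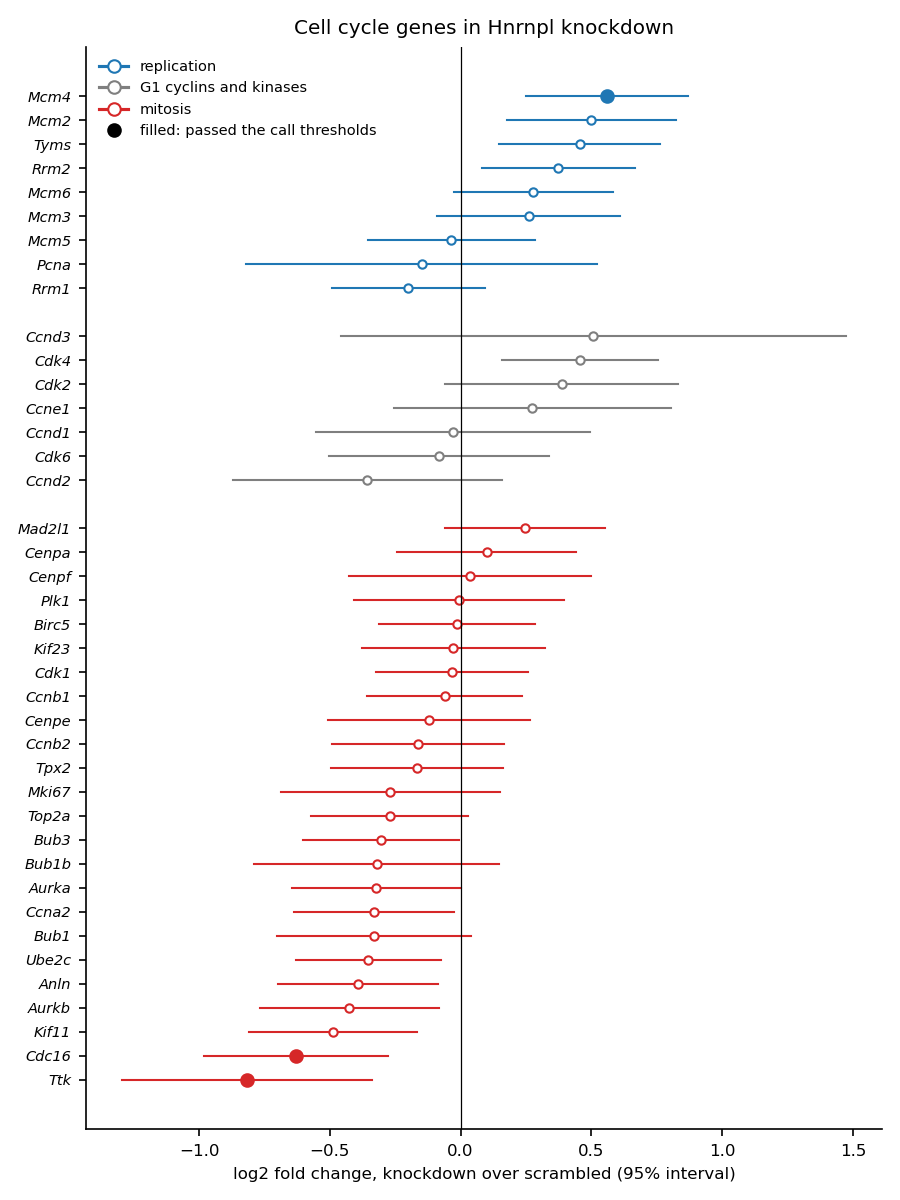
Log2 fold change of knockdown over scrambled (x axis) with its 95% interval for the 40 tested members, ordered within the replication, G1 and mitosis lists. Filled points are the 3 called genes, *Mcm4* at 0.56, *Cdc16* at -0.63 and *Ttk* at -0.82, and 21 of the 24 mitosis genes lie left of 0.

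The summed reads show the same split between the arms. The 10 replication genes summed to 2474 and 2366 normalized counts in scrambled 1 and 2 and to 2752 and 3073 in knockdown 1 and 2, which is 2420 ± 76.7 against 2912 ± 227 (SD, n = 2 each), higher by 20.3%. The 28 mitosis genes summed to 6564 and 6311 in scrambled and to 5542 and 5707 in knockdown, which is 6437 ± 178.5 against 5625 ± 116 (SD, n = 2 each), a change of -12.6%. The groups did not overlap for either sum. The ratio of the mitosis sum to the replication sum was 2.65 and 2.67 in the scrambled libraries and 2.01 and 1.86 in the knockdown libraries. An exact permutation test of 2 against 2 libraries cannot give a p under 0.333, and none was made. The difference between the 2 medians of log2 fold changes was 0.55, and 0.54 without *Rrm2* and *Ube2c*, the gene with the most reads in each list, which was added as a setting with the data in view. Medians do not weight genes by reads, so this setting does not bear on the sums, which were not made without these genes. In the group means *Rrm2* went from 756 in scrambled to 980 in knockdown, and *Ube2c* from 860 to 673.

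**Figure D3:**
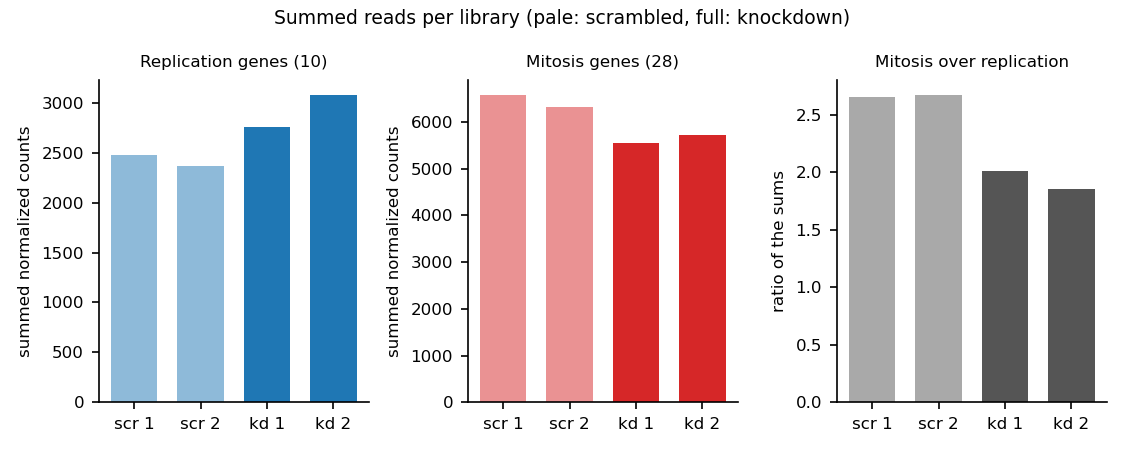
Summed normalized counts of the replication genes (left) and the mitosis genes (middle) and the ratio of the sums (right) in each library, with scrambled libraries pale and knockdown libraries in full colour. The replication sum is higher and the mitosis sum lower in both knockdown libraries, and the ratio goes from 2.65 and 2.67 to 2.01 and 1.86.

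Chromosomes moved with these values. The genes of chromosomes 1, 5, 6, 10 and 16 had median log2 fold changes of 0.19, 0.23, 0.28, 0.24 and 0.30, and those of chromosome 9 had -0.37. Of the 6 replication genes above 0, 5 lie on chromosomes 1, 5, 6 and 16 (*Mcm2*, *Mcm3*, *Mcm4*, *Mcm6* and *Tyms*), and *Ttk*, *Anln*, *Kif23* and *Ccnb2* lie on chromosome 9. With each chromosome's median removed, the replication median went from 0.28 to 0.08 and the mitosis median from -0.27 to -0.23, and the difference between them from 0.55 to 0.31. In that fit 7 of 9 replication genes lay above 0 and 20 of 24 mitosis genes below 0, no member was called, and an unadjusted p under 0.05 was left for 1 replication gene that was higher (*Rrm2*) and for 3 mitosis genes that were lower (*Ccna2*, *Cdc16* and *Ube2c*). In this fit 6.89% of all genes were higher and 7.85% lower at an unadjusted p under 0.05.

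Of the replicative helicase genes, *Mcm4* was called higher, and *Mcm2* and *Mcm6* lay above scrambled in both knockdown libraries. The Mcm2 to Mcm7 proteins form the ring that is loaded at origins in G1 and unwinds DNA in S phase. Their 6 genes summed to 1026 and 1011 normalized counts in scrambled and 1205 and 1317 in knockdown, higher by 23.8%. *Mcm4* (ENSMUSG00000022673.6, GRCm39 chr16:15440211-15455264, reverse strand) had 172 and 217 reads in scrambled and 267 and 230 in knockdown, or 180.1 and 183 against 266 and 269 normalized counts. Its libraries lay close together within each group and far apart between groups. It was called higher (log2 fold change 0.56, standard error 0.15, adjusted p = 0.0306), on a chromosome with a median of 0.30, and it stood at 0.26 with that median removed (adjusted p = 0.455). Over the 17 alternatives its adjusted p lay between 0.0230 and 0.455, and it passed 0.05 in 8 of them and in none of the 4 that left out a library.

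*Mcm2* was measured at 143 and 153 normalized counts in scrambled and 207 and 213 in knockdown (log2 fold change 0.50, standard error 0.15, unadjusted p = 0.00437, adjusted p = 0.0607). Its groups did not overlap, and the value with the chromosome median removed was 0.22. *Mcm6* had 287 and 253 against 321 and 333 normalized counts, also without overlap (log2 fold change 0.28, adjusted p = 0.276). *Mcm3* had 202 and 181 against 195 and 264, and its groups overlapped (log2 fold change 0.26, adjusted p = 0.386). *Mcm5* stood at 213 and 239.8 against 210.2 and 233 (log2 fold change -0.04, adjusted p = 0.923). With the chromosome medians removed, *Mcm3* stood at 0.07, *Mcm6* at 0.08 and *Mcm5* at 0.05. The difference between subunits was not tested. *Mcm7* had 1 and 2 reads in scrambled and 5 in each knockdown library and was too low to test.

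Of the genes of nucleotide supply, *Rrm2* and *Tyms* had log2 fold changes above 0 and *Rrm1* one below, none of the 3 was called, and the difference between them was not tested. *Rrm2*, the regulated small subunit of ribonucleotide reductase that makes deoxyribonucleotides, had 772 and 739.5 normalized counts in scrambled and 890 and 1069 in knockdown (log2 fold change 0.37, standard error 0.14, unadjusted p = 0.0149, adjusted p = 0.120). Its groups did not overlap, its chromosome had a median of -0.03, and with that removed it stood at 0.40 (unadjusted p = 0.00974, adjusted p = 0.146). Without knockdown 2 *Rrm2* was at 0.23 (adjusted p = 0.434) and without knockdown 1 at 0.50. *Rrm1*, the large subunit, had 417 and 385 against 335 and 364 normalized counts, with knockdown below scrambled (log2 fold change -0.20, adjusted p = 0.436). *Tyms*, the thymidylate synthase, had 232 and 205 against 302 and 297 (log2 fold change 0.45, standard error 0.15, unadjusted p = 0.00612, adjusted p = 0.0743), and 0.22 with its chromosome median of 0.23 removed. *Pcna*, the sliding clamp of the DNA polymerases, had few reads, 26 and 29 in scrambled and 21 and 22 in knockdown. Normalized, *Pcna* stood at 27.2 and 24.4 against 20.9 and 25.7, and the groups overlapped (log2 fold change -0.15, 95% interval -0.82 to 0.52, adjusted p = 0.835).

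**Figure D4:**
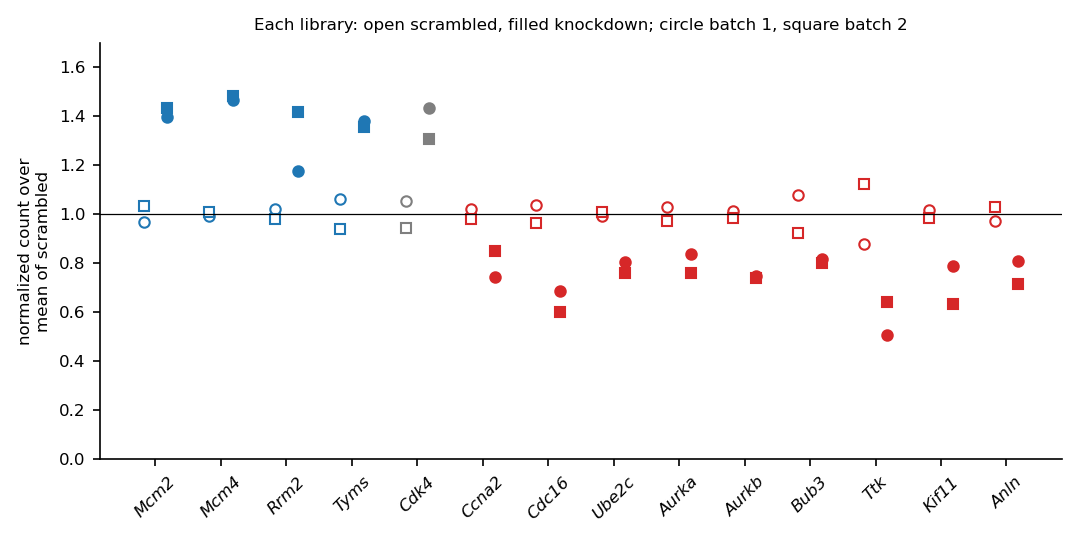
Normalized count of each library divided by the mean of the scrambled libraries (y axis) for the 14 members with an unadjusted p under 0.05, with replication genes in blue, *Cdk4* in grey and mitosis genes in red. Open symbols are scrambled and filled symbols knockdown, circles batch 1 and squares batch 2. The genes were chosen on these libraries, so the separation of the groups is a description.

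Of the G1 cyclins and kinases, *Cdk4* alone had an unadjusted p under 0.05 before chromosome medians were removed. *Cdk4*, which with the D cyclins phosphorylates the retinoblastoma protein, had 328 and 294 normalized counts in scrambled and 445 and 406 in knockdown (log2 fold change 0.46, standard error 0.14, unadjusted p = 0.00464, adjusted p = 0.0629). Its groups did not overlap, and with the median of chromosome 10 removed the log2 fold change was 0.22 (unadjusted p = 0.145). *Cdk2*, the partner of cyclins E and A, had 66.0 and 50.5 against 71.7 and 79.5 (log2 fold change 0.39, adjusted p = 0.303), and stood at 0.15 with the same median removed (adjusted p = 0.821). *Cdk6* had 69.1 and 96.8 against 78.7 and 79.5, with overlap (log2 fold change -0.08, adjusted p = 0.855), and stood at -0.31 with the median of its chromosome removed (adjusted p = 0.519). Of the 7 tested G1 genes 4 lay above 0 and 3 below, and none was called by edgeR or DESeq2. Their median log2 fold change was 0.27, and 0.15 with chromosome medians removed. The 8 listed G1 genes summed to 615 and 623 normalized counts in scrambled and 753 and 748 in knockdown, higher by 21.3%.

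*Ccnd1* encodes cyclin D1, which links growth signals to entry into S phase. It had 38 and 59 reads in scrambled and 41 in each knockdown library, or 39.8 and 49.6 against 40.9 and 47.9 normalized counts. The groups overlapped (log2 fold change -0.03, 95% interval -0.55 to 0.50, adjusted p = 0.967). *Ccnd2*, the cyclin D2 gene, had 57.6 and 53.8 against 50.8 and 35.1 (log2 fold change -0.36, adjusted p = 0.425). With the median of its chromosome removed *Ccnd2* was at -0.63 (unadjusted p = 0.0182, adjusted p = 0.206). *Ccnd3* had 5.24 and 14.3 against 13.9 and 15.2, so scrambled 1 alone stood apart (log2 fold change 0.51, 95% interval -0.46 to 1.47, adjusted p = 0.562). *Ccne1*, a cyclin E gene, had 42.9 and 57.2 against 47.8 and 76.0 (log2 fold change 0.27, adjusted p = 0.567). The D cyclins summed to 103 and 118 normalized counts in scrambled and 106 and 98.2 in knockdown, and the sums overlapped.

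Of the mitotic cyclins and their kinase, *Ccna2* alone had an unadjusted p under 0.05, and none was called by edgeR or DESeq2. *Ccna2*, whose cyclin A acts in S phase and in early mitosis, had 313 and 301 normalized counts in scrambled and 228 and 261 in knockdown (log2 fold change -0.33, standard error 0.15, unadjusted p = 0.0363, adjusted p = 0.194). With the median of chromosome 3 removed it was -0.43 (unadjusted p = 0.00896, adjusted p = 0.139). With the replicate number as a block, the unadjusted p of *Ccna2* was 0.0584. *Ccnb1* had 313 and 334 against 309 and 312, knockdown below scrambled by less than 1 SD of the scrambled libraries (log2 fold change -0.06, 95% interval -0.36 to 0.24, adjusted p = 0.849). *Ccnb2* had 194 and 180.0 against 176 and 157 (log2 fold change -0.16, adjusted p = 0.589). *Cdk1*, the kinase that drives entry into mitosis, had 555 and 472 against 491 and 512, and the groups overlapped (log2 fold change -0.03, 95% interval -0.32 to 0.26, adjusted p = 0.923). With the chromosome medians removed, *Ccnb1* stood at -0.29 (adjusted p = 0.364), *Cdk1* at -0.27 (adjusted p = 0.387) and *Ccnb2* at 0.20 (adjusted p = 0.621), so *Ccnb2* changed sign.

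The anaphase-promoting complex is the ubiquitin ligase that destroys cyclin B and securin and so lets chromosomes separate. *Cdc16* (ENSMUSG00000038416.16, GRCm39 chr8:13807368-13833218, forward strand), which encodes a subunit of its arm of tetratricopeptide repeat proteins, had 154 and 178 reads in scrambled and 107 and 80 in knockdown. Normalized, this was 161 and 149.7 against 107 and 93.5, a change of -35.7% in the means, without overlap. It was called lower (log2 fold change -0.63, standard error 0.17, adjusted p = 0.0315) on a chromosome with a median of -0.08. With that median removed it was -0.55 (adjusted p = 0.0832), and the adjusted p over the 17 alternatives lay between 0.0236 and 0.525, past 0.05 in 8 of them and in none of those without a library. *Ube2c*, the conjugating enzyme that starts ubiquitin chains for the complex, had 853 and 867 against 692 and 655 normalized counts (log2 fold change -0.35, standard error 0.13, unadjusted p = 0.0160, adjusted p = 0.125). Its scrambled libraries nearly coincided and both knockdown libraries lay below them. *Cdc20*, the activator of the complex, had 3 and 4 reads in scrambled and 3 and 1 in knockdown, and the subunit gene *Cdc23* had at most 1 read per library, so neither was tested. Of 14 other tested genes of the complex and its regulators, none was called by edgeR, 1 was higher at an unadjusted p under 0.05, and their median log2 fold change was -0.02.

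For both Aurora kinase genes the 2 knockdown libraries lay below the scrambled libraries, with adjusted p above 0.05. *Aurkb*, the kinase of the chromosomal passenger complex, which corrects wrong attachments of chromosomes to the spindle, had 149 and 145 normalized counts in scrambled and 109.6 and 109 in knockdown (log2 fold change -0.43, standard error 0.16, unadjusted p = 0.0175, adjusted p = 0.131). *Aurka*, the kinase of the spindle poles, had 216 and 204 against 175 and 159 (log2 fold change -0.32, standard error 0.15, unadjusted p = 0.0499, adjusted p = 0.228). Neither overlapped between groups, and with the replicate number as a block the unadjusted p of *Aurka* was 0.0648. *Tpx2*, which activates Aurora A on the spindle, had 180.1 and 167 against 158 and 149.6 (log2 fold change -0.17, adjusted p = 0.576). *Birc5*, which encodes survivin, a partner of Aurora B in the passenger complex, had 657 and 617 against 566 and 697 and overlapped (log2 fold change -0.01, adjusted p = 0.972). *Plk1*, the polo-like kinase of mitotic entry and centrosome maturation, had 79.6 and 104 against 101 and 83.0 and overlapped too (log2 fold change -0.01, adjusted p = 0.988).

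The spindle checkpoint holds the anaphase-promoting complex inactive until every kinetochore is attached. For 4 of its 5 genes both knockdown libraries lay below both scrambled libraries, and for *Mad2l1* both lay above, where 26.0% of all genes tested lay below and 26.4% above. *Ttk* (ENSMUSG00000038379.16, GRCm39 chr9:83703392-83755037, forward strand), whose kinase starts checkpoint signalling at unattached kinetochores, had 64 and 102 reads in scrambled and 39 and 42 in knockdown. Normalized, this was 67.0 and 85.8 against 38.9 and 49.1, a change of -42.5% in the means. It was called lower (log2 fold change -0.82, standard error 0.23, adjusted p = 0.0400) on chromosome 9, whose median was -0.37, and with that median removed it was -0.45 (adjusted p = 0.387). Its adjusted p lay between 0.0104 and 0.656 over the 17 alternatives and passed 0.05 in 9 of them. Without scrambled 2 its log2 fold change was -0.62 (adjusted p = 0.270), and without knockdown 1 it was -0.65 (adjusted p = 0.241).

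The other checkpoint genes encode the proteins that bind and hold the activator Cdc20. *Bub3*, the propeller protein that brings Bub1 and BubR1 to kinetochores, had 461 and 394 normalized counts in scrambled and 349 and 342 in knockdown (log2 fold change -0.30, standard error 0.14, unadjusted p = 0.0464, adjusted p = 0.220). Without scrambled 1 *Bub3* was at -0.19, and with the replicate number as a block its unadjusted p was 0.0759. *Bub1*, the kinetochore kinase, had 118 and 117 against 82.7 and 105 (log2 fold change -0.33, adjusted p = 0.289). *Bub1b*, the BubR1 gene, had 56.5 and 76.6 against 54.8 and 52.6 (log2 fold change -0.32, adjusted p = 0.430). In these 3 genes the groups did not overlap, while the adjusted p of each was above 0.05. *Mad2l1*, the Mad2 gene, had 228 and 243 against 289.9 and 269 (log2 fold change 0.24, adjusted p = 0.345), and with the median of chromosome 6 removed it was -0.03.

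For the 3 centromere and kinetochore members, *Cenpa*, *Cenpe* and *Cenpf*, the groups overlapped. *Cenpa*, the histone H3 variant that marks centromeres, had 404 and 311 normalized counts in scrambled and 332 and 435 in knockdown (log2 fold change 0.10, adjusted p = 0.773). *Cenpe*, a kinetochore motor, had 94.2 and 90.0 against 92.7 and 76.0 (log2 fold change -0.12, adjusted p = 0.759). *Cenpf* had 112 and 66.5 against 97.6 and 81.8 (log2 fold change 0.04, adjusted p = 0.949). *Cenpa* and *Cenpf* moved in opposite directions in the 2 batches. With the chromosome medians removed, *Cenpa* stood at -0.13, *Cenpe* at -0.22 and *Cenpf* at -0.16, so *Cenpa* and *Cenpf* changed sign.

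Of the genes of the spindle motors and of cytokinesis, *Kif11* and *Anln* lay below scrambled in both knockdown libraries, and *Kif23* overlapped. *Kif11*, the kinesin-5 motor that pushes the spindle poles apart, had 313 and 304 normalized counts in scrambled and 243 and 195 in knockdown (log2 fold change -0.49, standard error 0.15, unadjusted p = 0.00482, adjusted p = 0.0641). With the median of chromosome 19, -0.23, removed it was -0.26 (adjusted p = 0.475). *Anln*, the anillin scaffold of the contractile ring, had 316 and 336 against 264 and 233 (log2 fold change -0.39, standard error 0.15, unadjusted p = 0.0150, adjusted p = 0.120). It lies on chromosome 9, and with that median removed it was -0.02 (adjusted p = 0.965). *Kif23*, a kinesin of the central spindle on the same chromosome, had 144.5 and 138 against 125 and 153 and overlapped (log2 fold change -0.03), and with the median removed it was 0.34 (adjusted p = 0.366). *Kif20a*, another motor of cytokinesis, had 0 and 3 reads in each group, and *Prc1*, which bundles the central spindle, had 0 and 2 in scrambled and 2 and 0 in knockdown.

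*Mki67* and *Top2a* are the common marks of cycling cells. *Mki67*, whose protein coats mitotic chromosomes, had 201 and 297 reads in scrambled and 141 and 210 in knockdown, or 210.4 and 249.9 against 140.5 and 245 normalized counts. Knockdown 1 alone stood apart, and the groups overlapped (log2 fold change -0.27, standard error 0.20, adjusted p = 0.469). Without knockdown 1 the log2 fold change of *Mki67* was 0.09 (adjusted p = 0.848), and without knockdown 2 it was -0.72 (adjusted p = 0.0406). *Top2a*, the topoisomerase that untangles sister chromatids, had 364 and 353 against 315 and 278, without overlap (log2 fold change -0.27, standard error 0.14, adjusted p = 0.283). With its chromosome median removed *Top2a* was at -0.16 (adjusted p = 0.681). The interval of *Mki67*, -0.69 to 0.15, holds the value of *Top2a*.

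Within batches, the mitosis genes lay lower in each. Their median log2 ratio of knockdown to scrambled was -0.24 in batch 1 and -0.20 in batch 2, and 17 of 24 were lower in both, where 32.1% of all genes tested were. The replication genes had medians of 0.16 and 0.47, and 5 of 9 were higher in both batches, against 32.9% of all genes. *Mcm4* had log2 ratios of 0.56 and 0.56, *Cdc16* -0.59 and -0.68, and *Ttk* -0.78 and -0.80. *Birc5*, *Cdk1*, *Kif23*, *Cenpa* and *Cenpf* were lower in batch 1 and higher in batch 2, and *Plk1* was higher in batch 1 and lower in batch 2.

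**Figure D5:**
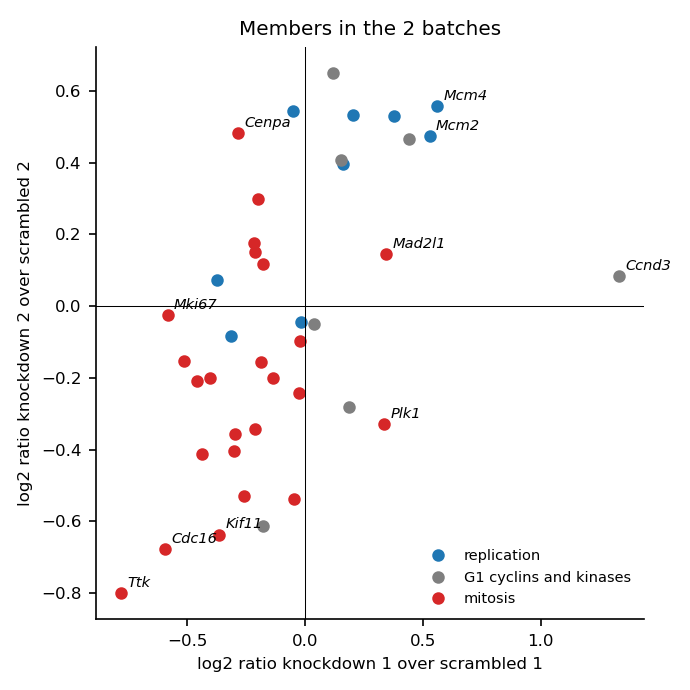
Log2 ratio of knockdown to scrambled in batch 1 (x axis) and batch 2 (y axis) for the 40 tested members, coloured by list. Of the 24 mitosis genes (red), 17 lie lower in both batches, and of the 9 replication genes (blue), 5 lie higher in both.

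Mitosis genes with and without a CHR match were set side by side. The 16 tested mitosis genes with a match had a median log2 fold change of -0.29, with 14 of them below 0, and the 5 without one had -0.06, with 4 below 0. With chromosome medians removed, the middle value of the 5 without a match was -0.22 (*Cenpe*) in place of -0.06. *Cdc16* was at -0.55, *Ccnb1* at -0.29, *Mad2l1* at -0.03 and *Birc5* at 0.10. Of the 16 with a match, the middle values in that fit were -0.24 (*Bub3*) and -0.20 (*Mki67*). The middle value without a match thus lay between them. The difference between genes with and without a match was not tested. Over the tested genes with a promoter entry, the median was 0.02 both for the 1086 with a match and for the 5564 without. Of the called genes with a promoter entry, *Ttk* had a CHR match and *Cdc16* had none.

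Wider lists of replication and mitosis genes lay closer to scrambled than the members did, though the difference between the lists was not tested. Of 175 further genes, 157 were tested, and 77 lay above 0 and 80 below, with a median log2 fold change of -0.01. The 46 other replication genes had a median of 0.10 and the 74 other mitosis genes one of -0.04. At an unadjusted p under 0.05, 3 other replication genes were higher and 4 lower, and 3 other mitosis genes were higher and 7 lower, where 10.3% of all genes tested were higher and 11.5% lower. Their summed normalized counts were 5258 ± 185 in scrambled and 5155 ± 118 in knockdown for replication, and 10160 ± 212 against 10060 ± 438 for mitosis (SD, n = 2 each), a difference within the spread of the libraries. Calls were made for 3 of the 157, against 5.55% of all genes tested. *Spc24*, a subunit of the Ndc80 complex of the kinetochore, had 112 and 142 reads in scrambled and 72 and 55 in knockdown (log2 fold change -0.80, adjusted p = 0.0115). *Tfdp2*, a dimerization partner of E2F factors, had 27 and 46 against 13 and 9 reads (log2 fold change -1.51, adjusted p = 0.0163). *Nek7*, a kinase of spindle and centrosome function, had 92 and 122 against 151 and 131 reads (log2 fold change 0.61, adjusted p = 0.0346). *Spc24* and *Tfdp2* lie on chromosome 9, with its median of -0.37, and *Nek7* on chromosome 1, with one of 0.19, and none of the 3 was called with the chromosome medians removed or in the 4 DESeq2 configurations. Of the 157 genes, 1 was called without scrambled 2, 0 without knockdown 1 and 1 without knockdown 2.

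The 6 members too low to test were *Mcm7*, *Ccne2* (6 and 9 reads in scrambled, 4 and 8 in knockdown), *Cdc20*, *Cdc23*, *Kif20a* and *Prc1*. In the GENCODE vM39 annotation, 61.5% of the exon bases of *Kif20a* are shared with *Brd8* and *Cdc23* on the opposite strand, and 19.1% of those of *Cdc23* with *Kif20a*. *Prc1* shares 11.8% with *Rccd1*, *Mcm7* 12.3% with opposite-strand genes, and among tested members *Ccnd1* shares 48.4%, *Rrm2* 43.3%, *Aurka* 38.7% and *Pcna* 20.8%. Reads on such bases can be set aside as ambiguous when strand is not used in counting, and the strand setting is not given in the sources used here. The canonical transcripts of all 46 members mapped to their own locus with a mapping quality of 60, and 14 of them also had another locus that covered at least 50% of the transcript, such as *Pcna* at 99.3% identity, *Mcm7* at 97.5% and *Cdc20* at 94.1%. How many reads were lost in these ways was not tested.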

How the data were processed

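Direct RNA of 2 scrambled and 2 *Hnrnpl* knockdown C2C12 libraries was used. The authors basecalled with guppy, mapped to GRCm39 with minimap2 2.17 and counted with HTSeq 0.9.1, and the deposited files hold raw counts per gene. The annotation release and the strand setting are not given in the sources used here. Of all reads, 56.5 to 57.8% were counted on genes, and rows that name no gene (ambiguous 16 to 16.5%, low mapping quality 22.7 to 23.8%) were left out. Symbols and positions came from GENCODE vM39, which held 56017 of the 56748 gene IDs.

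Counts of all genes were filtered by filterByExpr, normalized by TMM and fitted by group with the quasi-likelihood method of edgeR 4.0.16 under R 4.3.3, and p-values were Benjamini-Hochberg adjusted over the 8670 genes tested. Standard errors are the log2 fold change over the square root of F. Normalized counts were brought to the mean library size with TMM factors, and within-batch ratios used a pseudocount of 0.5. The call thresholds were those of the study, which used DESeq2. The procedure was tested on simulated data.

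The members, the gene lists and the motifs were chosen with earlier results of these data known. Full statistics go to members with an unadjusted p under 0.05 and to *Mki67*, *Pcna*, *Ccnd1*, *Ccnb1* and *Cdk1*, and other cell cycle genes are named where called. Replicate numbers were taken as batches. In the study's scripts the libraries of one number share a date, so the numbers pair the libraries. Across 8670 genes, the deviation of library 1 from its group mean correlated between the groups at -0.02. The replicate block was run as an alternative, with upper quartile or RLE factors, a minimum of 10 counts per library or no filter, robust and legacy = FALSE fits, 4 configurations of DESeq2 1.42.0, *Rn18s* and mitochondrial genes left out, chromosome medians removed, other thresholds, other motif settings and each library left out. Member transcripts were mapped with minimap2 2.31-r1302. Levels of different genes were not compared, and proteins were not analysed here.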

Additional observations from a re-analysis of the deposited data

How the results depend on the processing

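Of the 14 members with an unadjusted p under 0.05, none changed sign under the 17 alternatives. The count of called members, 3 (1 higher, 2 lower), was 0 in both directions with the DESeq2 Wald and likelihood-ratio tests under local and parametric fits and with chromosome medians removed, and with upper quartile factors 1 was called lower. Calls over all genes fell as well, from 481 to 228 and 115 (Wald, local and parametric) and to 222 and 112 (likelihood-ratio, local and parametric). They numbered 285 with chromosome medians removed and 452 with upper quartile factors. With a local fit and the Wald test of DESeq2, 4 replication genes were higher and 5 mitosis genes lower at an unadjusted p under 0.05, and of all genes with counts 2.65% were higher and 3.74% lower. These shares include genes with few reads, unlike the tested members. In edgeR without the filter on low counts the shares were 6.6% and 7.75%, in place of 10.3% and 11.5%. With the replicate block 3 members were called, and 6 mitosis genes in place of 9 were lower at an unadjusted p under 0.05, where 10.9% of all genes were in place of 11.5%. *Ccna2*, *Aurka* and *Bub3* did not reach that p with the block. Leaving out libraries in turn left 0 to 2 members called, 0 higher and 0 to 2 lower: *Ttk* without scrambled 1, none without scrambled 2 or knockdown 1, and *Ttk* and *Mki67* without knockdown 2. The lone library of a group is then assumed to vary like the others.

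The difference between the replication and mitosis medians was 0.31 with chromosome medians removed, 0.44 with a mitosis list without *Ccna2*, *Mki67* and *Top2a* (mitosis median -0.17), and 0.45 to 0.69 without single libraries. The mitosis median was -0.23 with chromosome medians removed and -0.27 to -0.22 without single libraries, and the replication median 0.18 without scrambled 2 and 0.44 without knockdown 1. The G1 median, 0.27 with all libraries, was 0.02 without scrambled 1, -0.08 without knockdown 2 and 0.39 without knockdown 1. Without single libraries *Mki67* lay between -0.72 and 0.089 (adjusted p = 0.0406 and 0.848), *Pcna* between -0.30 and 0.0007, *Cdk1* between -0.15 and 0.086 and *Ccnd1* between -0.17 and 0.14, and *Ccnd1* was 0.039 with chromosome medians removed. *Hnrnpl* was -0.78 with parametric DESeq2 fits (adjusted p = 0.0567 Wald, 0.0670 likelihood-ratio) and -1.03 to -0.48 without single libraries (adjusted p = 0.194 without scrambled 2 and 0.150 without knockdown 1). Other cell cycle genes called numbered 0 in each DESeq2 configuration and with chromosome medians removed, 6 at an adjusted p under 0.1, and 0 to 3 without single libraries. A CHR match was in 44.0% of mitosis promoters when the 250 bases before the start alone were searched, and in 17.1% of all promoters. It was in 17.9% of all promoters for TTTGAA alone and in 14.0% of promoters of tested genes. An E2F match was in 1.9% of all promoters before the start alone and in 4.3% for tested genes, and CCAAT in 33.8% before the start alone. The causes of these differences were not tested. With 2 libraries a group, the standard error of the log2 fold change (median 0.24 over all genes tested) limits which changes can be called.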
